A study of Homo sapiens with 5 samples.

Results

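Sites that ATF3 and p53 occupied together were examined in HCT116 human colon cancer cells after DNA damage by camptothecin (CPT), an inhibitor of topoisomerase I. Members were the p53 peaks of the CPT-treated cells that overlapped no peak of the p53-knockout library, and a member was called shared when it had at least 1 bp in common with an ATF3 peak of CPT-treated cells. Of 9082 p53 peaks on chromosomes 1 to 22, X and Y, 5532 overlapped a p53-KO peak and were set apart. Of the 3550 left, 666 were shared and 2884 were p53-only, against a background of 10.2% of all p53-CPT peaks and 4.65% of those set apart that met an ATF3 peak. The shared sites held 675 of the 70231 ATF3 peaks. All 5 lists of the series together held 122911 peaks on these chromosomes.

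The measurements were ChIP-seq peak lists, with 1 library per condition and no replicates, so no difference below was tested against replicate spread. The ATF3-CPT library came from cells with wild-type ATF3 and the p53-CPT library from cells with wild-type p53, both treated with CPT at 1.5 µM for 4 h. The p53-KO library came from p53-knockout cells given DMSO, the vehicle, so it differed from p53-CPT in genotype and in treatment. The p53-KO library also held fewer tags (1984941 against 3169743). Cells with wild-type ATF3 given DMSO (ATF3-Ctrl) and ATF3-knockout cells given DMSO (ATF3-KO, a single clone made by gene targeting with a recombinant adeno-associated virus) served as background for ATF3. Chromatin of every library was cross-linked with DSG, a protein-to-protein cross-linker, and then with formaldehyde, so a peak can mark a factor held through another protein as well as one on DNA.

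p53 is a tumour suppressor that binds DNA as a tetramer at a consensus made of repeated decamers and activates genes of cell cycle arrest, apoptosis and DNA repair. ATF3 is a bZIP factor of the ATF/CREB family that is induced by stress, pairs with JUN proteins and binds AP-1 and ATF/CRE elements, and it is known to bind the p53 protein. A site where both are found can therefore carry the element of either factor, of both or of neither.

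Every score below is the findPeaks score, a whole number that the authors' peak caller gave each peak, and it is not the number of tags behind the normalized tag count. The p53-CPT library had 3169743 tags and the ATF3-CPT library 15457013, and the lowest scores in the lists were 7 for p53 and 9 for ATF3. A p53-only site is thus a site with no ATF3 peak in the list, not one shown to lack ATF3. Intervals are 95% Wilson intervals for shares and 95% order-statistic intervals for medians, and they cover counting error only.

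The sequences of 9 sites show the arrangements in which the factors were found (hg19, plus strand, 5′ to 3′). Each stretch spans both summits, or the p53 summit alone at a p53-only site, with the closest match to the p53 consensus and any AP-1 core (TGACTCA or its reverse complement TGAGTCA) in capitals. The first 3 are shared sites with a p53 motif and an AP-1 core, at GADD45A (chr1:68152435-68152528), in the MDM2 promoter (chr12:69202652-69202767) and in PTPN14 (chr1:214612955-214613069).
GADD45A: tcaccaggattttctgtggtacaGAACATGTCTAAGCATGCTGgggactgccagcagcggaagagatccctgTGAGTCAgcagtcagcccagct
MDM2: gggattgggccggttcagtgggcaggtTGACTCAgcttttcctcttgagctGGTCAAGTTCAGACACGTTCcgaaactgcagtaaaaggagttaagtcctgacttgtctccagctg
PTPN14: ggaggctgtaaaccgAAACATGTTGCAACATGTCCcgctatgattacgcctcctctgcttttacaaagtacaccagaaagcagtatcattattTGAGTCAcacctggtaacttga

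The next 3 are shared sites with a p53 motif and no AP-1 or CRE core, upstream of CDKN1A (chr6:36635007-36635069), in an intron of GSN (chr9:124084770-124084838) and upstream of MTHFD1L (chr6:151178468-151178558).
CDKN1A, upstream: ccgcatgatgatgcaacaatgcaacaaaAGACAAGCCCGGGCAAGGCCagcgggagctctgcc
GSN: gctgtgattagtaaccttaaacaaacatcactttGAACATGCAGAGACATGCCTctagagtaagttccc
MTHFD1L: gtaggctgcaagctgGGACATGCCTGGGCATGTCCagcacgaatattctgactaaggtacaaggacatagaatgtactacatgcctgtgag

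The shared site in an intron of ATF3 (chr1:212769819-212769931) had an AP-1 core and no p53 motif within 3 mismatches. The p53-only site of BAX (chr19:49458455-49458504) is given for contrast, and of the p53-only site at the CDKN1A TSS the p53 motif alone (chr6:36644226-36644245).
ATF3, intron: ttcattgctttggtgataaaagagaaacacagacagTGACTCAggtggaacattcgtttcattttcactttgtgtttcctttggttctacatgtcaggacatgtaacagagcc
BAX: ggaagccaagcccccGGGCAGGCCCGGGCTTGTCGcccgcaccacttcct
CDKN1A, TSS: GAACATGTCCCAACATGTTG

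ATF3 peaks lay at 18.8% of the p53 sites (666 of 3550, 17.5 to 20.1%). The p53 peaks set apart, which were also seen in cells without p53, had an ATF3 peak at 257 of 5532 (4.65%, 4.12 to 5.23%). Peaks that were in the p53-KO list alone had an ATF3 peak at 66 of 2236 (2.95%, 2.33 to 3.74%). With every p53-CPT peak counted, the share was 10.2% (923 of 9082), and with ATF3 peaks of a score of at least 20 alone it was 10.3% of the p53 sites. The ATF3 peaks covered 8.78 Mb, 0.284% of these chromosomes. From the other side, 0.961% of the ATF3 peaks lay in a shared site.

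The share of p53 sites with ATF3 was higher among the sites with the highest p53 scores. It was 17.6% at a score of 7 (155 of 879), 15.7% at 8 to 9 (154 of 978) and 17.3% at 10 to 14 (134 of 775). It was 21.7% at 15 to 24 (95 of 438), 23.8% at 25 to 49 (77 of 323) and 32.5% at 50 and above (51 of 157, 25.7 to 40.2%). The peaks set apart stood below the p53 sites in each score group, from 1.63% at a score of 7 to 6.12% at 25 to 49, and reached 22.9% at 50 and above (55 of 240, 18.1 to 28.6%). In that top group the intervals of both kinds of peak overlapped.

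**Figure D1:**
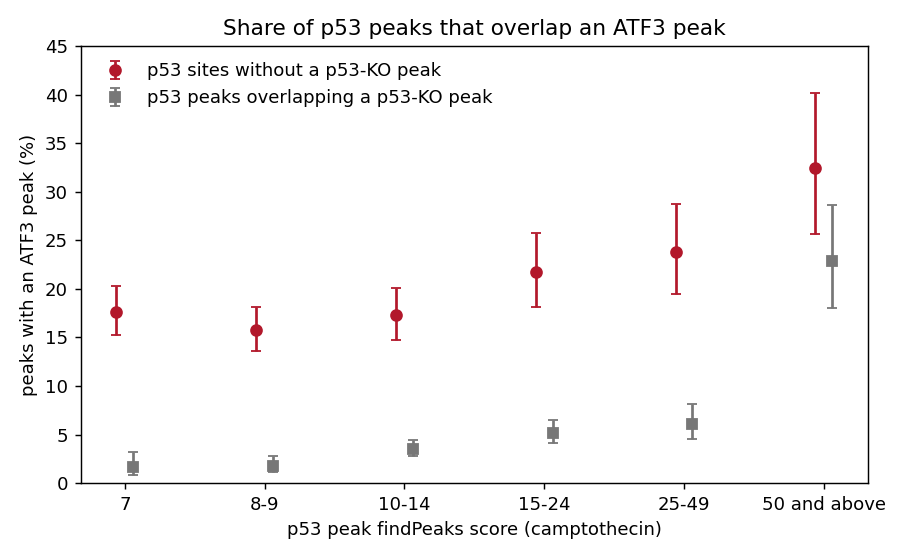
Share of p53 peaks with an ATF3 peak (vertical axis, percent) by p53 peak score (horizontal axis, findPeaks score) for p53 sites without a p53-KO peak (circles) and p53 peaks overlapping a p53-KO peak (squares). Points are shares and bars 95% Wilson intervals; the p53 sites go from 17.6% at the lowest score to 32.5% at 50 and above.

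Scores of shared and p53-only sites covered nearly the same range, from 7 to 169 and from 7 to 176 for p53. The median p53 score was 10 at shared sites (interval 9 to 11, quartiles 8 and 19) and 9 at p53-only sites (9 to 9, quartiles 7 and 14), against 13 at the peaks set apart. As a normalized tag count, scaled to 10000000 tags, the median was 31.5 at both shared and p53-only sites. ATF3 peaks of shared sites had a median score of 22 (20 to 24, quartiles 13 and 43), against 16 (16 to 17, quartiles 11 and 29) at the 69297 ATF3 peaks without any p53 peak. The share of ATF3 peaks that lay in a shared site went from 0.534% at an ATF3 score of 9 (39 of 7308) to 2.79% at 100 and above (34 of 1220). Across the 666 shared sites the ATF3 score and the p53 score had a Pearson r of 0.11 and a Spearman rho of 0.026, given as a description across sites of the same pair of libraries.

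At shared sites the summits lay close together but seldom on the same base. The distance between the ATF3 summit and the p53 summit had a median of 59 bp (quartiles 22 and 117, highest 221). Of the 666 sites, 294 had summits within 50 bp (44.1%) and 467 within 100 bp (70.1%). ATF3 lay to the right of p53 on the plus strand at 334 sites, to the left at 327 and on the same base at 5. The whole ATF3 peak lay within the p53 peak at 461 sites, and 9 sites held 2 or more ATF3 peaks. ATF3 peaks had a width of 124 bp and p53 peaks of 318 bp in the file headers, which bounds the distance a shared site can have.

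**Figure D2:**
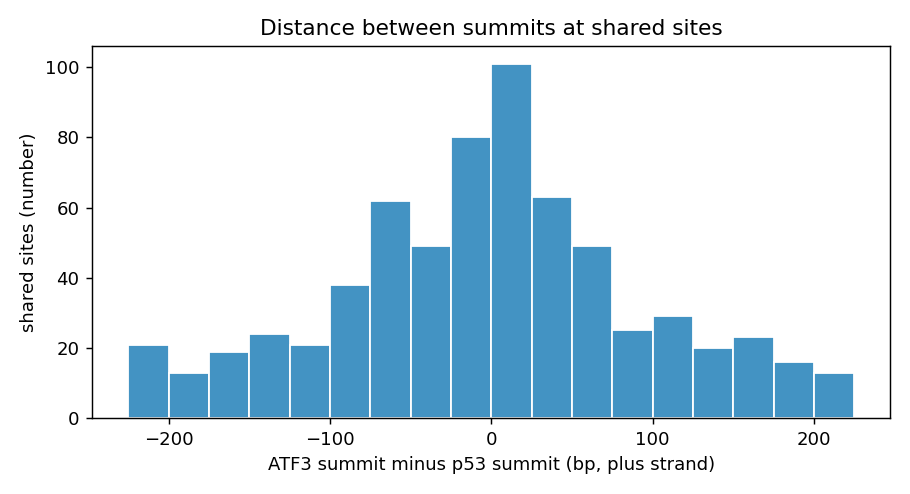
Number of shared sites (vertical axis) by the position of the ATF3 summit relative to the p53 summit (horizontal axis, bp along the plus strand, bins of 25 bp). The 666 sites form a single hump around 0, with 334 ATF3 summits to the right and 327 to the left.

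Sites just inside the 1 bp limit were in TBCD, with 1 bp in common, and near SKI and PRKX, with 2 bp each. Their p53 scores were 9, 14 and 8 and their ATF3 scores 14, 14 and 16. Just outside it lay the p53-only site at the promoter of RPS19, a ribosomal protein gene, with a gap of 1 bp to an ATF3 peak of score 14 and a p53 score of 101. The site at SLC35F3 had a gap of 5 bp, a p53 score of 32 and an ATF3 score of 17.

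Most p53-only sites lay far from ATF3. The nearest ATF3 summit was a median of 12783.5 bp away, 324 of 2884 p53-only sites had an ATF3 summit within 1000 bp (11.2%), and 1294 within 10000 bp (44.9%). At the p53 peaks set apart the nearest ATF3 summit was a median of 20792.5 bp away.

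How often the p53 motif was found with and without ATF3 depended on the peaks and mismatches taken in. At up to 3 mismatches it was found in 300 of 666 shared sites (45.0%, 41.3 to 48.8%) and 1283 of 2884 p53-only sites (44.5%, 42.7 to 46.3%). It was in 4.65% of the peaks set apart and in 6.01% and 7.52% of equally wide windows 1000 bp beside the shared and p53-only sites. Close matches made up a smaller share of the shared sites. At most 1 mismatch was seen in 64 shared sites (9.61%, 7.60 to 12.1%) and in 506 p53-only sites (17.5%, 16.2 to 19%), whereas exactly 3 mismatches were seen in 20.7% of shared and 10.5% of p53-only sites. With at most 2 mismatches allowed, the shares were 24.3% and 34.0%, so the shared sites stood lower there, whereas the intervals at up to 3 mismatches overlapped. Without the ATF3 peaks that overlapped an ATF3-KO peak, the shares at up to 3 mismatches were 51.0% of shared (47.0 to 55.1%) and 43.3% of p53-only sites (41.6 to 45.1%). Among sites with a p53 score of at least 15, the motif at up to 3 mismatches was in 72.6% of shared and 78.0% of p53-only sites.

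The AP-1 core set shared and p53-only sites further apart than the p53 motif did. TGACTCA or TGAGTCA was in 180 of 666 shared sites (27.0%, 23.8 to 30.5%) and 114 of 2884 p53-only sites (3.95%, 3.30 to 4.73%), the latter no more than the 5.27% of windows beside them and the 3.98% of the peaks set apart. Windows of the same width at ATF3 peaks without p53 held it at 44%. The ATF/CRE core TGACGTCA, which is its own reverse complement, was in 9 shared sites (1.35%), in 2 p53-only sites (0.0693%) and in 0.30% and 0.17% of the windows beside them. Only exact matches to these 3 words counted, on both strands of hg19, and no word contains another.

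Combining the motifs gave 4 kinds of shared site. A p53 motif together with an AP-1 or CRE core was in 107, a p53 motif only in 193, a core only in 80 and neither in 286. Motifs were searched for in the p53 peak alone, and the whole ATF3 peak lay within it at 461 of the 666 sites. A core under an ATF3 peak but outside the p53 peak was thus not counted, as at the shared site of BBC3. Seen from all p53 sites, ATF3 was at 107 of 160 with both motifs (66.9%, 59.3 to 73.7%) and at 80 of 142 with a core only (56.3%, 48.1 to 64.2%). It was at 193 of 1423 with a p53 motif only (13.6%, 11.9 to 15.4%) and at 286 of 1825 with neither (15.7%, 14.1 to 17.4%).

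Median scores were higher where the motif of the precipitated factor was present. The median ATF3 score was 36 with both motifs (28 to 41) and 53 with a core only (43 to 72), but 17 with a p53 motif only (15 to 20) and 19 with neither (16 to 20). The median p53 score was 16 with both motifs (12 to 19) and 16 with a p53 motif only (13 to 20), but 8 with a core only (8 to 9) and 9 with neither (8 to 9).

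**Figure D3:**
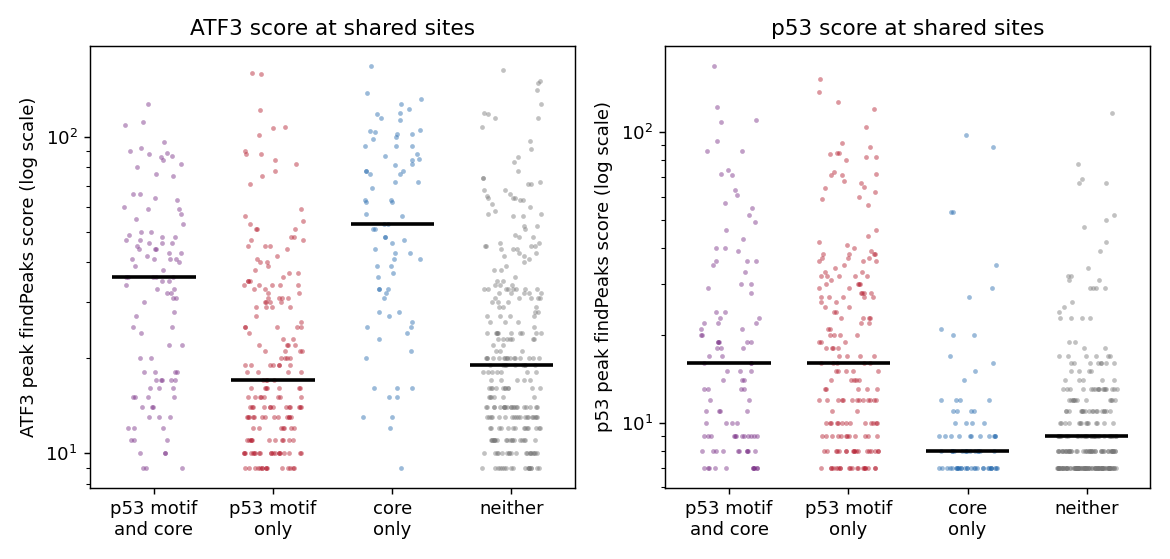
ATF3 score (left) and p53 score (right) of the 666 shared sites on log axes, as findPeaks scores, grouped by the motifs in the p53 peak. Each point is a site and the black line the group median; ATF3 medians are 36, 17, 53 and 19 and p53 medians 16, 16, 8 and 9 from left to right.

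Each summit lay nearer, in the median, to its own element. Motifs were searched for in the p53 peak alone, which bounds the distance of the p53 summit more tightly. The highest distance to a p53 motif was 144.5 bp for the p53 summit and 324.5 bp for the ATF3 summit. Among equally close matches to the p53 consensus, and among cores, the 1 nearest the p53 summit was used. The part of these choices in the distances was not tested. At shared sites with a p53 motif, the p53 summit was a median of 11.5 bp from the centre of the motif and the ATF3 summit 61.5 bp. At the 187 shared sites with a core, the ATF3 summit was a median of 21 bp from the core and the p53 summit 58.0 bp. In the 107 sites with both motifs, the ATF3 summit was nearer to the core at 80 (74.8%, 65.8 to 82.0%) and the p53 summit nearer to the p53 motif at 91 (85%, 77.1 to 90.6%). The p53 motif and the core in these sites were a median of 59.5 bp apart. At p53-only sites the p53 summit was a median of 12.5 bp from its motif, as it was at shared sites with both motifs.

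A larger share of shared than of p53-only sites lay in promoters, here within 2 kb of a TSS of a protein-coding gene. Promoters took up 3.27% of the chromosomes and held 160 of 666 shared sites (24%, 20.9 to 27.4%), 222 of 2884 p53-only sites (7.70%, 6.78 to 8.73%) and 5.06% of the peaks set apart. ATF3 peaks without p53 were in promoters at 20.3%. Counting promoters of genes of all types, the promoter shares were 32.7% of shared and 14.4% of p53-only sites. Introns held 29.0% of shared and 38.5% of p53-only sites, exons 2.40% and 1.66%, and 44.6% and 52.1% lay between genes. The nearest TSS was a median of 20884.5 bp from shared sites and 44445.5 bp from p53-only sites.

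**Figure D4:**
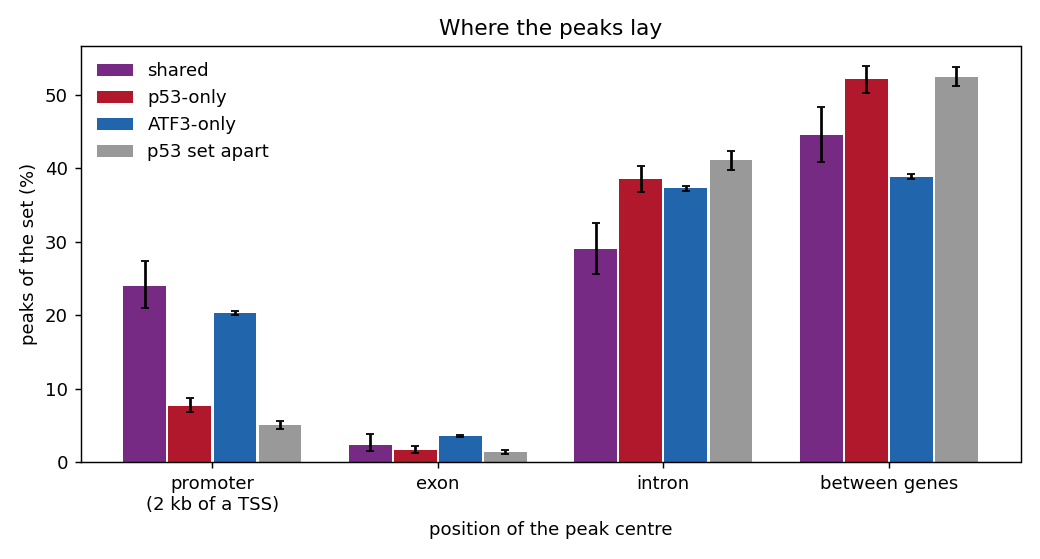
Share of peaks (vertical axis, percent) in promoters, exons, introns and between genes for shared sites, p53-only sites, ATF3 peaks without p53 and p53 peaks that overlap a p53-KO peak. Bars are shares with 95% Wilson intervals; promoters hold 24%, 7.70%, 20.3% and 5.06% of these sets.

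Seen from the p53 sites, ATF3 was present at 160 of 382 in promoters (41.9%, 37 to 46.9%), 193 of 1303 in introns (14.8%, 13.0 to 16.8%) and 297 of 1801 between genes (16.5%, 14.8 to 18.3%). Motifs differed by place. In promoters, 27.5% of shared and 39.2% of p53-only sites had a p53 motif, and 16.9% and 4.05% a core. In introns, 54.9% of shared and 43.6% of p53-only sites had a p53 motif, and 34.7% and 3.42% a core. The shared sites with neither motif were in promoters at 103 of 286 (36.0%), against 14 of 107 with both (13.1%). Without the p53 sites that overlapped an ATF3-KO peak, ATF3 was at 138 of 356 promoter sites (38.8%) and 440 of 3078 others (14.3%).

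An ATF3 peak was already in the list of undamaged cells at many shared sites. ATF3-Ctrl had a peak at 344 of 666 shared sites (51.7%, 47.9 to 55.4%), beside 26387 of 69297 ATF3 peaks without p53 (38.1%). It had one at 48 of 2884 p53-only sites (1.66%). These were sorted by having no ATF3-CPT peak, so their low share is no independent contrast. Among shared sites, an ATF3-Ctrl peak was at 58 of 80 with a core only (72.5%) and 175 of 286 with neither motif (61.2%). It was at 50 of 107 with both (46.7%) and 61 of 193 with a p53 motif only (31.6%). At the 349 ATF3 peaks of shared sites that had an ATF3-Ctrl peak, the normalized tag count after CPT was a median of 1.83 times that in ATF3-Ctrl, beside 1.81 times at ATF3 peaks without p53. These ratios compare 2 libraries.

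The ATF3-KO library, in which no ATF3 should be precipitated, had a peak at 88 shared sites (13.2%, 10.9 to 16%) and 28 p53-only sites (0.971%). The p53-only sites were again sorted by having no ATF3-CPT peak. Of these 88, 81 had neither motif, 4 a core only, 2 a p53 motif only and 1 both. ATF3 peaks without p53 overlapped an ATF3-KO peak at 2.27%. When the ATF3 peaks with an ATF3-KO peak were removed, the share of p53 sites with ATF3 was 16.4%. Low-complexity sequence made up 5.71% of shared sites, 5.34% of p53-only sites and 11.6% of the peaks set apart. The part of antibody background in the shared sites without a motif was not tested.

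The highest p53 scores of shared and p53-only sites covered much the same range. The shared sites that led were those nearest SARAF (p53 score 169, ATF3 score 64), MAP2K6 (153 and 9), GML (138 and 54) and MTHFD1L (127 and 18). They were followed by PTPN14 (122 and 57), H6PD (120 and 10), TRIAP1 (116 and 162), SUGCT (110 and 15), GADD45A (108 and 82) and FAM72D (104 and 35). Of these 10 sites, 8 lay outside promoters and 9 had a p53 motif, and their ATF3 scores ranged from 9, the lowest in the list, to 162. The named TSS were from 20 bp (TRIAP1) to 582474 bp (SUGCT) away, with 312431 bp at SARAF, 104932 bp at MAP2K6 and 52614 bp at H6PD. A name gives the nearest TSS and not a target gene. MAP2K6 encodes a kinase of the p38 pathway, MTHFD1L a mitochondrial enzyme of folate metabolism, PTPN14 a tyrosine phosphatase and H6PD a pentose phosphate enzyme of the endoplasmic reticulum.

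The p53-only sites that led were those at the TSS of CDKN1A (p53 score 176) and nearest IER5 (170), ALOX5 (149), IFNGR2 (147), CASZ1 (144) and TGFA (143). They were followed by METRNL (136), GAS6 (128) and PLAC8 (126), and the sequence at CASZ1 was of low complexity. The named TSS were from 5 bp (CDKN1A) to 143777 bp (METRNL) away. ATF3 was often not far. The nearest ATF3 summit was 447 bp from the site in GAS6 and had a score of 66, 650 bp from the site near TGFA with a score of 89, and 1124 bp from the site near IER5 with a score of 44. At PLAC8 it was 16141 bp away.

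The shared sites with the highest ATF3 scores were those in MAPRE3 (ATF3 score 167, p53 score 11), at TRIAP1 (162 and 116), near EHF (159 and 34), upstream of CDKN1A (158 and 36) and nearest OR4F16 (150 and 67). All 5 had an ATF3-Ctrl peak, with scores of 168, 183, 103, 134 and 135. The sites at TRIAP1 and OR4F16 also overlapped an ATF3-KO peak. MAPRE3 had an AP-1 core and no p53 motif, and its p53 score of 11 was close to the median of shared sites (10).

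CDKN1A, which encodes the cell cycle inhibitor p21, had 3 p53 sites and 6 ATF3 peaks, and the highest peaks of the factors were at different sites. The highest p53 peak was p53-only and lay 5 bp from the TSS. It scored 176, and its normalized tag count was 905.4, with an exact Poisson interval from 803.7 to 1016. The nearest ATF3 summit was 1332 bp away, in a peak of score 14. The highest ATF3 peak scored 158 and lay 9211 bp upstream, and there the summits of ATF3 and p53 were 4 bp apart and p53 scored 36. ATF3 had a normalized tag count of 168.9 (149 to 191) at this site after CPT and 190.8 in ATF3-Ctrl. A p53-only site in an intron, 3915 bp downstream of the TSS, also scored 36, and an ATF3 summit lay 347 bp from it.

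GADD45A, a stress sensor that acts in arrest and DNA repair, had its only p53 site 1362 bp downstream of a TSS. The p53 score was 108 and the ATF3 score 82, the summits were 38 bp apart, and the p53 motif and the AP-1 core were those printed above. ATF3 was there before damage, with a normalized tag count of 85 in ATF3-Ctrl and 63.4 (51.5 to 77.3) after CPT. ATF3 had 4 further peaks at GADD45A, with scores of 29 to 49.

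MDM2, the ubiquitin ligase that degrades p53, had 2 p53 sites and both were shared. The promoter site, 30 bp from a TSS, had scores of 71 for p53 and 47 for ATF3 with summits 85 bp apart. ATF3 had a normalized tag count of 30.4 (22.3 to 40.4) there after CPT and 8.5 in ATF3-Ctrl. The site 7940 bp upstream was weak in both lists, with scores of 10 and 12.

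GDF15, a secreted stress cytokine, had 3 p53 sites, and each was shared. Their scores were 62 for p53 and 121 for ATF3 in an annotated exon 9731 bp upstream of a TSS of GDF15, 68 and 14 at 768 bp upstream of an alternative TSS, and 18 and 25 at 44 bp from the TSS. ATF3-Ctrl had a peak at the first of these and not at the other two. The order of the p53 scores differed from that of the ATF3 scores.

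BBC3 and BAX, which encode apoptotic proteins of the BCL2 family (PUMA and BAX), had their ATF3 and p53 summits 195 bp or more apart. At BBC3 the p53-only promoter site scored 59, and a shared site 191 bp from another TSS had scores of 37 and 51 with summits 195 bp apart. The highest ATF3 peak of BBC3 scored 167 and overlapped no p53 site. At BAX the single p53 site, 297 bp from a TSS, scored 36, and the single ATF3 peak scored 33 with its summit 459 bp away.

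GSN, which encodes the actin-severing protein gelsolin, and IGFL3, a member of a small family of IGF-like proteins, each had 1 p53 site, and both were shared. GSN had scores of 85 for p53 and 47 for ATF3 with summits 31 bp apart, and IGFL3 82 and 39 with summits 33 bp apart. The normalized tag count of ATF3 was 27.8 (20.1 to 37.5) after CPT and 6.2 in ATF3-Ctrl at GSN, and 29.1 (21.2 to 39.0) and 13.9 at IGFL3.

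The ATF3 gene had ATF3 at its promoter and both factors in an intron. The peak 51 bp upstream of a TSS had an ATF3 score of 198 and no p53 peak overlapped it. The shared site lay in an intron, 12187 bp upstream of the nearest TSS, with a p53 score of 89, an ATF3 score of 81, summits 82 bp apart and no ATF3-Ctrl peak. It had an AP-1 core and a p53 consensus match of 4 mismatches. A pair of p53-only sites at ATF3 scored 9 and 14.

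**Figure D5:**
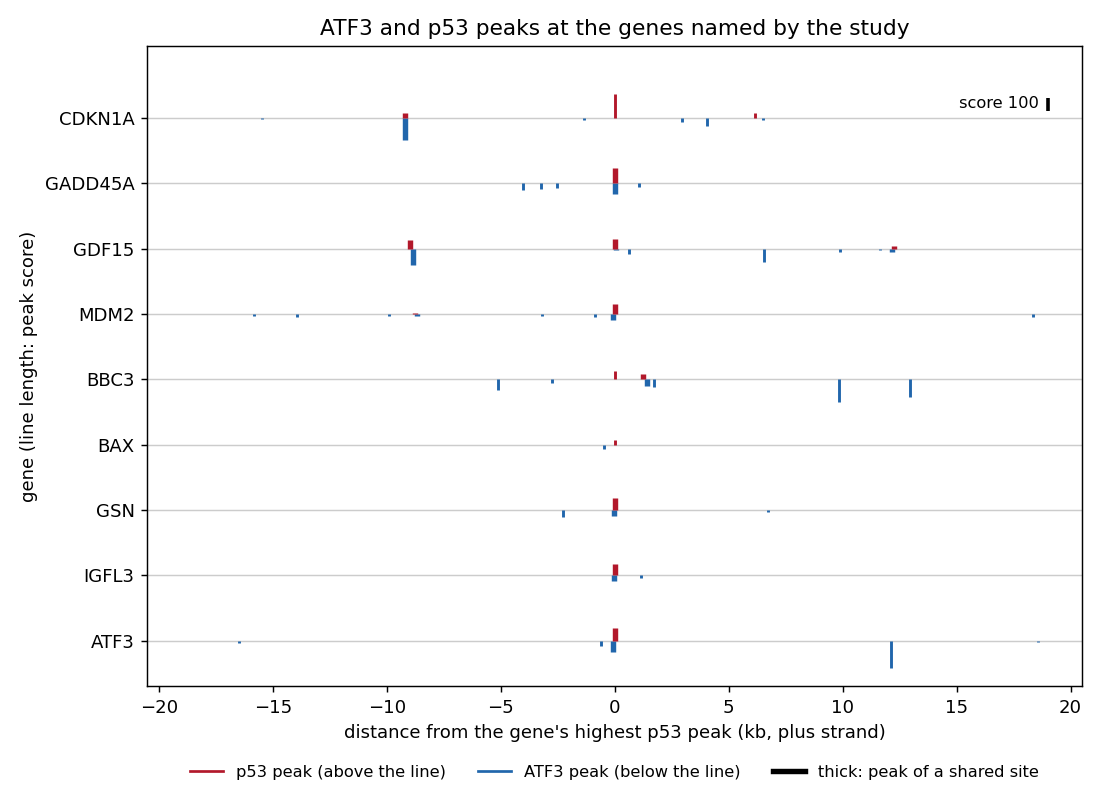
ATF3 peaks (below each line) and p53 peaks (above) at 9 genes, placed by distance from the highest p53 peak of the gene (horizontal axis, kb along the plus strand) with line length in proportion to peak score and thick lines for shared sites; peaks over 20 kb away are not drawn. At CDKN1A the highest p53 peak (176) and the highest ATF3 peak (158) stand apart, and at GADD45A they coincide.

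At the level of genes, more genes held ATF3 and p53 at separate sites than at a shared one. Each of 20163 protein-coding genes was given the region from 20 kb upstream of its TSS to its end. Regions of neighbouring genes can overlap, so a site can count in several genes and the genes are not independent units. The neighbours S100A4, S100A3 and S100A2, for example, had the same nearest pair of summits, 235 bp apart. A p53 site was in 2235 genes (11.1%), of which 561 had a shared site (2.78% of all genes), 1527 had both factors at separate sites only (7.57%) and 147 had p53 and no ATF3 (0.729%). An ATF3 peak and no p53 site was in 14242 genes (70.6%), so that 81% of all genes had ATF3 and most genes with p53 had it as well. The regions were not of equal length, with a median of 68.7 kb for genes with a shared site, 104.6 kb for separate sites, 52.6 kb for p53 only and 29.7 kb for neither. With p53 scores of at least 15, a shared site was in 172 genes and separate sites in 408, and with 50 kb on either side of the TSS as the region a shared site was in 901 genes.

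In the 1527 genes with separate sites, the nearest ATF3 and p53 summits were a median of 5701 bp apart, within 1000 bp in 307 (20.1%) and within 10000 bp in 963 (63.1%). The most frequent arrangement was ATF3 at a promoter and p53 away from it, in 816 genes (53.4%). Both were away from promoters in 487 (31.9%), both at promoters in 178 (11.7%), and p53 at a promoter with ATF3 away from it in 46 (3.01%). These genes held a median of 4 ATF3 peaks and 1 p53 site. Promoters held 20.3% of all ATF3 peaks without p53 and 7.70% of all p53-only sites. The part of these peak numbers and places in the arrangements was not tested.

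Established p53 targets were examined as 6 lists taken from textbook knowledge, 95 genes in all. A p53 site was in 62 (65.3%, against 11.1% of all genes). Each of the 62 also had ATF3, as had all but 147 of the 2235 genes with a p53 site. Of the 62, 23 had a shared site (37.1%, 26.2 to 49.5%), beside 25.1% of all genes with a p53 site (561 of 2235). The other 39 had both at separate sites, beside 68.3% of all genes with a p53 site (1527 of 2235). A further 30 had ATF3 and no p53 site, and 3 had neither. The median region was 48.4 kb for these targets and 47.2 kb for all genes.

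The targets' 73 p53 sites were mostly in promoters, 52 of 73 (71.2%). ATF3 was at 20 of the 52 (38.5%, 26.5 to 52.0%), next to 41.9% of all promoter p53 sites, and at 6 of the other 21. The 26 shared target sites had a median p53 score of 25 and a median summit distance of 78 bp. The 39 target genes with separate sites had their nearest summits a median of 1256 bp apart, against 5701 bp over all genes of this class, and within 500 bp in 11. These groups were not alike, as 32 of 47 p53-only target sites lay in promoters, against 7.70% of all p53-only sites. Median regions were 48.4 kb for all listed targets and 104.6 kb for all genes with separate sites. The part of place and region length in the distances was not tested.

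Among the 14 genes of cell cycle arrest, 11 had a p53 site, beside 11.1% of all genes. Of the 11, 5 had a shared site and 6 separate sites, beside 25.1% and 68.3% of all genes with a p53 site. Besides CDKN1A, GADD45A and GDF15, E2F7, a repressor of cell cycle genes, had a shared promoter site (p53 23, ATF3 10, summits 11 bp apart), and PLK2, a polo-like kinase, a shared site upstream of its TSS (67 and 13, 62 bp). PLK3 had its p53 promoter site (44) at 301 bp from ATF3, SFN, which encodes 14-3-3 sigma, at 712 bp (12) and BTG2 at 1388 bp (31).

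Among the 22 genes of apoptosis and death receptors, 17 had a p53 site, beside 11.1% of all genes. Of the 17, 7 had a shared site and 10 separate sites, beside 25.1% and 68.3% of all genes with a p53 site. TRIAP1, an inhibitor of apoptosis, scored 116 for p53 and 162 for ATF3 at its promoter, where ATF3-KO also had a peak and neither motif was found. BCL2L1, which encodes BCL-xL, had a shared intron site (38 and 106, summits 82 bp apart). PHLDA3, a repressor of AKT signalling, had a shared promoter site (50 and 19, 193 bp), and so had TP53INP1 (17 and 26, 38 bp), EI24 (29 and 10, 94 bp) and CYFIP2 (9 and 9, 217 bp). The death receptor genes had ATF3 at separate sites. FAS had its nearest ATF3 summit 687 bp from its p53 site of score 17, TNFRSF10B 453 bp from a site of score 63, TNFRSF10A 448 bp from a site of score 12, and TNFRSF10D and TNFRSF10C 3388 and 10770 bp from theirs.

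All 10 genes of DNA repair had both factors, 4 at a shared site and 6 at separate sites. Of all genes with a p53 site, 25.1% had a shared site and 68.3% separate sites. REV3L, the catalytic subunit of DNA polymerase zeta, had summits 1 bp apart (p53 67, ATF3 20). XPC, the damage sensor of nucleotide excision repair, had them 5 bp apart (9 and 29), POLH, which encodes polymerase eta, 120 bp (10 and 27) and PCNA, the replication clamp, 214 bp (25 and 14). DDB2 had its p53 promoter site (47) at 630 bp from ATF3, RAD51C (26) at 551 bp and RRM2B, a ribonucleotide reductase subunit, its site (78) at 1990 bp.

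No shared site was found in the 18 genes of metabolism, redox and autophagy, where 6 had both at separate sites and 11 ATF3 only. GPX1, a glutathione peroxidase, had p53 (41) at 233 bp from ATF3, TIGAR (25) at 474 bp and SESN1 (17) at 607 bp. The list is small, and 0 of 6 genes with a p53 site is read against 25.1% over all genes with one.

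Of the 12 genes of feedback and ubiquitin ligases, 7 had a p53 site, beside 11.1% of all genes. Of the 7, 3 had a shared site and 4 separate sites, beside 25.1% and 68.3% of all genes with a p53 site. PPM1D, the phosphatase WIP1 that acts on p53, had a shared promoter site (16 and 55, summits 95 bp apart) with both motifs, and TRIM32 another (25 and 10, 100 bp). RPS27L had a p53 promoter peak of 110 whose nearest ATF3 summit, 238 bp away, belonged to a peak of score 19, and FBXW7 had p53 (23) at 250 bp from ATF3.

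Of the 21 genes of membrane, secreted and signalling proteins, 13 had a p53 site, beside 11.1% of all genes. Of the 13, 5 had a shared site and 8 separate sites, beside 25.1% and 68.3% of all genes with a p53 site. RAP2B had a shared promoter site (21 and 47, 136 bp), as had TLR3 (24 and 11, 54 bp), and TGFA a shared site 16447 bp upstream (23 and 30, 52 bp). KITLG, the ligand of the receptor KIT, had an intron p53 site of score 89 at 1391 bp from ATF3.

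Of the 25 genes of the AP-1 and ATF/CREB family, to which ATF3 belongs, 6 had a p53 site (24%), between the 65.3% of the p53 targets and the 11.1% of all genes (2235 of 20163), with a shared site at ATF3 and FOSL1 (11 and 48 at the FOSL1 promoter, summits 185 bp apart). FOSL2, JUNB, CREB5 and CREM had both factors at separate sites, 269 bp apart at FOSL2 and 2152 bp at JUNB. The other 19 had ATF3 peaks and no p53 site.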

How the data were processed

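Per the file headers, the authors aligned reads to hg19 with BWA 0.6.1 and called peaks per library with HOMER 4.1 findPeaks (FDR 0.001, 4 fold over the surrounding 10 kb, local p 1e-04), centred on the highest pile-up. The version numbers are from the submitters' processing notes. The deposited findPeaks score is a whole number from the caller, not scaled to library size and not equal to the tags behind the normalized tag count. Normalized tag counts were deposited as a signal scaled to 10000000 tags. The deposited focus ratio (a fraction), fold ratios and p-values were not used.

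The centre of a peak was taken as its summit. Genes and TSS were those of GENCODE release 44 mapped to GRCh37 (transcripts tagged basic, a choice made after seeing the data). The p53 consensus was matched with up to 3 mismatches. A site was of low complexity when distinct words of 6 bases made up less than 0.5 of its words. A gene with several p53 sites counted as shared if any was. Python 3.11.15, pandas 2.3.3, SciPy 1.17.1 and pysam 0.24.0 were used, and overlap, motif and annotation steps were tested on simulated intervals and sequences. Only peaks on chromosomes 1 to 22, X and Y were used. Depths were 1984941 to 15457013 tags per library, and 1 tag was a normalized tag count of 0.647 in ATF3-CPT and 3.15 in p53-CPT.

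The members, gene lists and comparisons were chosen with earlier results of these data known. Genes named were those the study names, the 10 shared and 10 p53-only sites with the highest p53 score, the 5 shared sites with the highest ATF3 score, listed p53 targets with both factors by p53 score and the sites at the 1 bp limit; a few other members of the lists were named after their values were seen. Sites are named by the protein-coding gene with the nearest TSS. Other overlaps, score limits, windows, motif limits and gene regions were tried. A few items that this rule selects are not reported here.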

Additional observations from a re-analysis of the deposited data

How the results depend on the processing

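Of 192 values recomputed under 18 alternatives, 113 stayed within the counting interval of the reported value (or within 1.5 times it for counts of genes) and 79 moved, with shared sites above p53-only sites in promoter share and core share under every alternative run, but not in p53 motif share. The p53 motif share was lower at shared than at p53-only sites with at most 2 mismatches. It was also lower, with overlapping intervals, with p53 scores of at least 15 and with ATF3 scores of at least 20 (42.9% of shared and 44.8% of p53-only sites). The intervals of the reported shares overlapped as well. With summits no more than 100 bp apart, 13.2% of p53 sites and 0.665% of ATF3 peaks were shared, the median distance was 36 bp, 3.16% of the peaks set apart had ATF3, the core was in 32.3% of shared and 4.90% of p53-only sites, and 9.08% of p53-only sites were in promoters. With summits no more than 500 bp apart, the values were 23.5%, 1.30%, 80 bp and 6.58%, the core was in 23.6% of shared sites, 42.9% of shared sites had an ATF3-Ctrl peak, and 5.64% of p53-only sites were in promoters. With at least 50% of the narrower peak in common, 16.3% of p53 sites, 0.824% of ATF3 peaks and 3.89% of the peaks set apart were shared, at a median of 49 bp.

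With ATF3 scores of at least 20, 10.3% of p53 sites, 1.27% of ATF3 peaks and 2.57% of the peaks set apart were shared, the median ATF3 score was 41 at shared and 34 at other ATF3 peaks, and the core was in 39.3% of shared and 4.96% of p53-only sites. An ATF3-Ctrl peak was then at 71.9% of shared sites, Spearman's rho of the scores was -0.12, 9.14% of p53-only sites were in promoters, and 325 genes had a shared site. With p53 scores of at least 15, 24.3% of p53 sites, 0.320% of ATF3 peaks and 7.30% of the peaks set apart were shared, the median p53 score was 28 at shared and 25 at p53-only sites, the median ATF3 score was 25 and rho was 0.17. The p53 motif was then in 72.6% of shared and 78.0% of p53-only sites at a median of 8 bp from the p53 summit, 46.2% of shared sites had an ATF3-Ctrl peak, 16.1% were in promoters, and 172 genes had a shared and 408 separate sites.

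With the p53 peaks that overlap a p53-KO peak kept, 10.2% of p53 peaks and 1.33% of ATF3 peaks were shared, the median p53 score was 12 at shared and 11 at p53-only sites, rho was 0.11, and the promoter shares were 19.9% and 5.86%. The p53 motif was then in 33.8% of shared and 18.73% of p53-only sites, the core in 23% of shared sites, an ATF3-Ctrl peak at 56.4%, and 3276 genes had separate sites. Without ATF3 peaks that overlap an ATF3-KO peak, 16.4% of p53 sites, 0.860% of ATF3 peaks and 2.57% of the peaks set apart were shared, with the p53 motif in 51.0% of shared and 43.3% of p53-only sites and an ATF3-Ctrl peak at 45.7% of shared sites.

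As normalized tag counts, the medians were 31.5 for p53 at shared and 31.5 at p53-only sites, and 15.5 and 11.0 for ATF3. Promoters of 1 kb on either side held 20.1% of shared and 5.72% of p53-only sites, and those of genes of every type 32.7% and 14.4%. With at most 2 mismatches, the p53 motif was in 24.3% of shared and 34.0% of p53-only sites, beside 45.0% and 44.5% at up to 3, whose intervals overlapped. In 200 bp around the p53 summit, the core was in 22.7% and 2.32%. With 50 kb on either side of the TSS, 901 genes had a shared site, and over genes of every type 1059 had a shared site and 2471 separate sites.

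Alternatives chosen after seeing the data were removing low-complexity p53 peaks, after which 3.56% of the peaks set apart had ATF3 and 46.9% of p53-only sites had the p53 motif, and the TSS of every transcript, with promoter shares of 28.7% and 11.5%. The cause of these shifts was not tested, beyond the fewer or more peaks, bases or genes that each alternative takes in. No paired analysis was possible because each condition had 1 library.

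With 1 library per condition, no value has a replicate spread. The p53-CPT library was shallow beside ATF3-CPT, with no peaks scoring under 7 for p53 or under 9 for ATF3 in the lists, and the share of ATF3 peaks with p53 is limited by the depth of p53. The p53-KO library differed from p53-CPT in treatment as well, so sites needing CPT but not p53 cannot be told apart from p53 sites. It was also shallower (1984941 tags against 3169743), so background peaks called in p53-CPT alone cannot be told apart from p53 sites either. The p53 motif was in 210 of 879 p53 sites at a score of 7 and in 135 of 157 at 50 and above. The part of background in the p53 sites was not tested.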
